A study of Sus scrofa with 8 samples.

Results

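Wnt proteins are secreted, lipid-modified signals, and R-spondin 3 is a secreted protein that makes cells more responsive to them. The genes WNT2, WNT2B, WNT4, WNT5A, WNT6, WNT7B, WNT10A, WNT11 and RSPO3 were followed in pig bladder, peritoneum and neobladder. They were chosen by symbol, as Ensembl genes of the count tables whose identifier is paired with 1 of these 9 names. An identifier was found for 8 of the 9, all 8 had reads and passed the filter on low counts, and they stand among 31907 genes counted and 16549 tested. WNT4 was not paired with an identifier and was not analysed here.

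Wnt ligands bind Frizzled receptors with the coreceptors LRP5 and LRP6 and stabilise beta-catenin, or act through other receptors such as ROR2 without it. R-spondins bind LGR receptors and keep the ubiquitin ligases RNF43 and ZNRF3 from removing Frizzled receptors. In mouse bladder, urothelium sends Hedgehog signals to the stroma, and stromal cells send Wnt signals back during repair, while in intestine Wnt and R-spondin from cells around the crypt maintain the stem cells.

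All tissue was from 8-month-old minipigs of the Guizhou breed. Surgeons can rebuild a bladder from a piece of ileum, called a neobladder, and the study replaced its mucosa with the animal's own peritoneum. The 4 groups, with 2 libraries each, were mucosa of the neobladder in the experimental group (MN-Exp), mucosa of the neobladder in the control group (MN-Ctrl), normal peritoneum (NP) and mucosa of the normal, native bladder (MNB). No genetic change or drug is named for any group. How the MN-Ctrl neobladder was lined, when mucosa was taken and whether replicates were separate animals are not stated in the labels, so p-values measure only the spread between these samples.

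Libraries held 7.94 to 11.88 M counts, and levels are given as counts per M counts of a library (CPM), scaled by trimmed mean of M-values. The scaling factors were 0.839 and 0.449 in MN-Ctrl and 1.088 to 1.239 elsewhere. The 9 measured urothelial markers summed to 4408 and 8428 CPM in MN-Exp, 79.5 and 177 in MN-Ctrl, 556 and 999.8 in NP, and 9812 and 8974 in MNB. In NP, UPK1B and KRT7 made up 84.0% and 93.3% of that sum, and UPK1A and SHH were at 0. Intestinal markers summed to 47.5 and 34.8 CPM in MN-Exp, 42930 and 161859 in MN-Ctrl, 165 and 332 in NP, and 33.7 and 29.2 in MNB. Most of the NP sum was a single gene, LGR5, at 118 and 290 CPM. Of 10 mesothelial markers 5 had an identifier, and their sum was 4.66 and 5.19 CPM in MN-Exp, 0.109 and 0.187 in MN-Ctrl, 34.4 and 32.6 in NP, and 10.3 and 5.23 in MNB. CALB2 was at 0 in every library, and KLK11 was at 0 in NP as well. In MNB replicate 1, BNC1, KLK11 and WT1 were also at 0, so that its sum was HAS1 alone. WT1 was at 0 in MN-Exp replicate 1 and BNC1 in MN-Exp replicate 2. BNC1 and WT1 were called lower in MN-Exp than in NP. HAS1, the other mesothelial marker tested, went the other way, with both MN-Exp libraries above both NP libraries, but was not called. HAS1 was called higher in MN-Exp than in MN-Ctrl. KLK11 had reads in both MN-Exp libraries. Fibroblast markers summed to 4260 and 4407 CPM in MN-Exp, 2719 and 1331 in MN-Ctrl, 53983 and 72876 in NP, and 14149 and 15786 in MNB. Adipocyte markers summed to 11.2 and 7.70 CPM in MN-Exp, 272 and 118 in MN-Ctrl, 1312 and 842 in NP, and 25.0 and 30.0 in MNB. The adipocyte markers were not alike in MN-Ctrl. CIDEC and LPL were called higher there than in MN-Exp and MNB, while PLIN1 and LEP were at 0. ADIPOQ, FABP4 and PLIN1 were called lower in MN-Ctrl than in NP. In whole tissue, fewer cells of a type and less RNA per cell cannot be told apart.

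WNT7B, WNT10A and WNT6 are best known as ligands of epithelia. WNT7B (ENSSSCG00000027365), a ligand made by many epithelia that can act through beta-catenin, lies on chromosome 5 of Sscrofa11.1 from 3521412 to 3572322 in the RefSeq annotation. WNT7B was at 10.7 and 20.4 CPM in MN-Exp, 0 and 0 in MN-Ctrl, 0.917 and 1.96 in NP, and 17.9 and 11.2 in MNB. The MN-Exp and MNB libraries overlapped, NP lay below both, and not 1 read of the gene was counted in either MN-Ctrl library. Against 3 counts over both MN-Ctrl libraries, WNT7B was at least 74.2-fold higher in MN-Exp than in MN-Ctrl (adjusted p = 0.000434). The same bound gave at least 69.9-fold lower in MN-Ctrl than in MNB (adjusted p = 0.000462) and at least 7.13-fold lower in MN-Ctrl than in NP (adjusted p = 0.00556). WNT7B was higher in MN-Exp than in NP by 3.41 on the log2 scale (SE 0.61, adjusted p = 0.00391). It was lower in NP than in MNB, with a log2 fold change of -3.32 (SE 0.61, adjusted p = 0.00522). Between MN-Exp and MNB the log2 fold change of WNT7B was 0.09 (SE 0.53, adjusted p = 1).

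WNT7B was high in the 4 libraries with the highest urothelial marker sums. Per 1000 CPM of those markers it was at 2.42 and 2.42 CPM in MN-Exp, 1.65 and 1.96 in NP, and 1.83 and 1.25 in MNB. With the reads of each group's 2 libraries pooled, the ratio was 2.42 in MN-Exp, 1.86 in NP and 1.54 in MNB, and 3 counts over both MN-Ctrl libraries would equal 1.79. A ratio like that of MNB was therefore not detectable in MN-Ctrl at this depth. The ratio of MN-Exp lay above the limit, and the pooled ratio of NP lay too close to it to be told from it. The urothelial sums also differed in makeup. UPK1B and KRT7 made up 15.9% and 21.0% of the sum in MN-Ctrl, beside 84.0% and 93.3% in NP. Summed general epithelial markers were 6493 and 10087 CPM in MN-Exp and 11007 and 7510 in MN-Ctrl. The keratin KRT8 alone made up 22.1% and 17.7% of that sum in MN-Exp and 59.9% and 67.0% in MN-Ctrl. Of the 9 epithelial markers tested, CLDN4 and ESRP1 were called higher and KRT8 lower in MN-Exp than in MN-Ctrl. Per 1000 CPM of the summed epithelial markers WNT7B was at 1.64 and 2.02 CPM in MN-Exp and 0 in both MN-Ctrl libraries. The part of tissue makeup in the WNT7B difference was not tested.

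WNT10A (ENSSSCG00000026958) and WNT6 (ENSSSCG00000036932) are neighbours on chromosome 15, where WNT6 spans 120901471 to 120917359 and WNT10A spans 120925204 to 120939032, with 7844 bases between them. Both are ligands known from surface epithelia and their appendages. WNT10A was at 2.29 and 2.13 CPM in MN-Exp, 0 and 0.937 in MN-Ctrl, 0.917 and 9.71 in NP, and 3.55 and 2.69 in MNB. The NP libraries were far apart, so that their range took in MN-Exp, MNB and MN-Ctrl replicate 2. WNT10A was lower in MN-Ctrl than in NP, with a log2 fold change of -3.72 (SE 1.35, adjusted p = 0.0473), although the libraries of these groups overlapped. Without NP replicate 2 the adjusted p was 0.542, without MN-Ctrl replicate 1 it was 0.145, with size factors 0.0537 and with those 2 groups fitted alone 0.104. With replicate number as a block the adjusted p was 0.0506. MN-Exp against MN-Ctrl gave 2.45 (SE 1.36, adjusted p = 0.220). MN-Ctrl against MNB gave -2.95 (adjusted p = 0.139), and passed on library totals (0.0472), without the low-count filter (0.0112) and without MN-Ctrl replicate 2 (0.0437). WNT6 had 0 and 2 counts in MN-Exp, 0 and 0 in MN-Ctrl, 12 and 0 in NP, and 6 and 18 in MNB. It did not pass the test in any comparison. Against 3 counts over both MN-Ctrl libraries, WNT6 was at least 4.51-fold lower in MN-Ctrl than in MNB, with an adjusted p of 0.139. WNT6 in MN-Exp was 0.0951 times its level in MNB, with a 95% exact interval for counting error of 0.0109 to 0.383.

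The other members are best known from stroma, and their order over the groups differed from that of WNT7B. WNT5A (ENSSSCG00000035859; chromosome 13, 37344684 to 37367215) acts mainly without beta-catenin, in cell polarity and movement. WNT5A was at 59.7 and 53.6 CPM in MN-Exp, 8.71 and 6.93 in MN-Ctrl, 20.5 and 34.1 in NP, and 21.5 and 25.1 in MNB. Both MN-Exp libraries were above all others and both MN-Ctrl libraries below all others, while NP and MNB overlapped. The means were 56.6 ± 4.29 CPM in MN-Exp, 7.82 ± 1.26 in MN-Ctrl, 27.3 ± 9.65 in NP and 23.3 ± 2.56 in MNB (SD, n = 2 each). WNT5A was higher in MN-Exp than in MN-Ctrl by 2.85 on the log2 scale (SE 0.40, adjusted p = 0.000834). It was lower in MN-Ctrl than in NP (log2 fold change -1.80, SE 0.39, adjusted p = 0.00464) and than in MNB (-1.57, SE 0.39, adjusted p = 0.0167). The NP call was lost without NP replicate 2 (adjusted p = 0.0606), and the MNB call without MNB replicate 1 (0.0697) or replicate 2 (0.105) and with those 2 groups fitted alone (0.0544).

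MN-Exp against NP gave a WNT5A log2 fold change of 1.05 (SE 0.37, adjusted p = 0.0621), and MN-Exp against MNB gave 1.28 (SE 0.37, adjusted p = 0.333). With the pair of groups fitted alone, these passed at adjusted p = 0.0191 and 0.0214, and the first also in DESeq2 (0.0441). Smooth muscle markers were also high in MN-Exp, with sums of 4126 and 4739 CPM, beside 784 and 624 in MN-Ctrl, 825 and 816 in NP, and 3765 and 3816 in MNB. Per 1000 CPM of these markers WNT5A was at 14.5 and 11.3 CPM in MN-Exp and 11.1 and 11.1 in MN-Ctrl, against 24.8 and 41.8 in NP and 5.71 and 6.58 in MNB. On the smooth muscle scale MN-Exp and MN-Ctrl lay close together, and MN-Exp stayed above MNB. Per 1000 CPM of fibroblast markers WNT5A was at 14.0 and 12.2 CPM in MN-Exp, 3.20 and 5.21 in MN-Ctrl, 0.379 and 0.468 in NP, and 1.52 and 1.59 in MNB. On the fibroblast scale MN-Exp lay above all other groups and NP below them. The part of smooth muscle or fibroblasts in the difference was not tested.

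WNT2B (ENSSSCG00000006780; chromosome 4, 107906141 to 107923343) is known in intestine as a ligand of mesenchymal cells. WNT2B was at 26.4 and 42.2 CPM in MN-Exp, 20.8 and 21.2 in MN-Ctrl, 11.6 and 11.1 in NP, and 32.5 and 30.8 in MNB. It was the only one of the 8 found at over 10 CPM in all 8 libraries, and NP was lowest without overlap. WNT2B was higher in MN-Exp than in NP by 1.59 on the log2 scale (SE 0.37, adjusted p = 0.0103) and lower in NP than in MNB (log2 fold change -1.47, SE 0.36, adjusted p = 0.0167). The first call was lost without MN-Exp replicate 2 (adjusted p = 0.125), NP replicate 1 (0.0651) or NP replicate 2 (0.0757). The second was lost without any 1 of its 4 libraries, at adjusted p = 0.0802 to 0.111. Between MN-Exp and MN-Ctrl the log2 fold change of WNT2B was 0.71 (SE 0.36, adjusted p = 0.180), beside a median of 0.11 over all genes. On unscaled library totals WNT2B gave 1.50 there (adjusted p = 0.0484), with the median over all genes at 0.89, and both NP calls were lost (0.0629 and 0.0725). MN-Ctrl against NP gave 0.88 for WNT2B (SE 0.36, adjusted p = 0.0723; 0.0422 in DESeq2). ST7L spans the locus from 107821610 to 108005021 and the counting strand is not stated. ST7L was at 18.9 and 21.0 CPM in MN-Exp, 18.5 and 25.7 in MN-Ctrl, 48.2 and 45.4 in NP, and 23.1 and 27.8 in MNB, so NP was its highest group where it was the lowest for WNT2B. RefSeq long noncoding RNAs overlap WNT2, WNT5A and WNT7B, and reads shared with them cannot be told apart without the strand.

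WNT2 (ENSSSCG00000016628; chromosome 18, 28945825 to 28993969), known from mesenchyme of lung and other organs, was scarce. It had 14 and 6 counts in MN-Exp, 1 and 0 in MN-Ctrl, 5 and 20 in NP, and 18 and 30 in MNB. The other 3 groups all lay above MN-Ctrl. WNT2 in MN-Ctrl was 0.0580 times its level in NP (95% exact counting interval 0.00141 to 0.354; adjusted p = 0.0453) and 0.0370 times its level in MNB (0.000917 to 0.216; adjusted p = 0.0375). Each call rested on single libraries. The NP call was lost without MN-Ctrl replicate 1 (adjusted p = 0.0754), MN-Ctrl replicate 2 (0.152) or NP replicate 2 (0.240), in DESeq2 (0.0523) and without the low-count filter (0.0552). The MNB call was lost without any 1 of its 4 libraries, at adjusted p = 0.0546 to 0.173. With replicate number as a block, the NP call (adjusted p = 0.0784) and the MNB call (0.0617) were also lost. Against MN-Ctrl, WNT2 in MN-Exp was 12.9 times as high (95% exact counting interval 2.06 to 533, adjusted p = 0.103).

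WNT11 (ENSSSCG00000022347; chromosome 9, 10413182 to 10435158) acts mainly without beta-catenin, in cell movement during development. WNT11 was at 5.42 and 2.04 CPM in MN-Exp, 0.653 and 0.375 in MN-Ctrl, 10.7 and 17.2 in NP, and 1.62 and 3.81 in MNB. NP was highest, MN-Ctrl lowest, and MN-Exp and MNB overlapped between them. WNT11 was lower in MN-Ctrl than in NP, with a log2 fold change of -4.67 (SE 0.80, adjusted p = 0.00133). It was higher in MN-Exp than in MN-Ctrl by 2.77 (SE 0.79, adjusted p = 0.0314), and this call was lost without MN-Exp replicate 1 (0.209), without MN-Ctrl replicate 2 (0.0832) and with those 2 groups fitted alone (0.0754). WNT11 was also higher in NP than in MNB by 2.35 (SE 0.66, adjusted p = 0.0291), lost without any 1 of the 4 libraries at adjusted p = 0.0502 to 0.244, and on library totals (0.0565). The MN-Exp value against NP was -1.90 (SE 0.65, adjusted p = 0.0563), which passed in DESeq2 (0.0297), without the filter (0.0218) and with those groups alone (0.0212). MN-Ctrl against MNB gave -2.32 (SE 0.79, adjusted p = 0.0597), which passed in DESeq2 (0.0464), without the filter (0.0189) and on library totals (0.0273). Per 1000 CPM of fibroblast markers WNT11 was at 1.27 and 0.463 CPM in MN-Exp, 0.240 and 0.281 in MN-Ctrl, 0.198 and 0.236 in NP, and 0.114 and 0.241 in MNB. On that scale NP did not stand out, and both MN-Exp libraries, though far apart, lay above all others. NP also had the highest adipocyte marker sums, with 5 of 5 tested adipocyte markers called higher in NP than in MNB, and the part of either cell type in the WNT11 differences was not tested.

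RSPO3 (ENSSSCG00000004218; chromosome 1, 35985985 to 36066432) encodes the R-spondin, which in mouse is made by stromal and endothelial cells. RSPO3 was at 2.03 and 2.13 CPM in MN-Exp, 1.31 and 1.87 in MN-Ctrl, 4.48 and 14.4 in NP, and 0.646 and 0.448 in MNB. No 2 groups overlapped: NP was highest, then MN-Exp, then MN-Ctrl, then MNB, where only 8 and 6 reads were counted. RSPO3 was higher in NP than in MNB by 4.09 on the log2 scale (SE 0.78, adjusted p = 0.00473), a call lost without MNB replicate 2 (0.0554). It was lower in MN-Ctrl than in NP (log2 fold change -2.59, SE 0.73, adjusted p = 0.0167) and in MN-Exp than in NP (-2.18, SE 0.69, adjusted p = 0.0438). Both calls rested on single libraries. Without NP replicate 2 the adjusted p was 0.205 for MN-Ctrl against NP and 0.406 for MN-Exp against NP. The MN-Ctrl call was also lost without MN-Ctrl replicate 1 (0.0531), and the MN-Exp call without MN-Exp replicate 1 (0.202) or replicate 2 (0.214). With replicate number as a block the MN-Exp call was lost too (adjusted p = 0.0710). MN-Exp against MN-Ctrl gave 0.41 (SE 0.73, adjusted p = 0.723), which did not hold up against the spread.

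The neighbours in the RSPO3 order changed place when set beside fibroblast markers. Per 1000 CPM of those markers RSPO3 was at 0.478 and 0.484 CPM in MN-Exp, 0.481 and 1.41 in MN-Ctrl, 0.083 and 0.198 in NP, and 0.046 and 0.028 in MNB. NP was then below both neobladder groups, and MNB stayed lowest. Endothelial markers summed to 608 and 530 CPM in MN-Exp, 224 and 199 in MN-Ctrl, 2698 and 1997 in NP, and 447 and 601 in MNB. NP thus had the highest sums of fibroblast, endothelial and adipocyte markers. The part of these cell types in the RSPO3 differences was not tested.

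**Figure D1:**
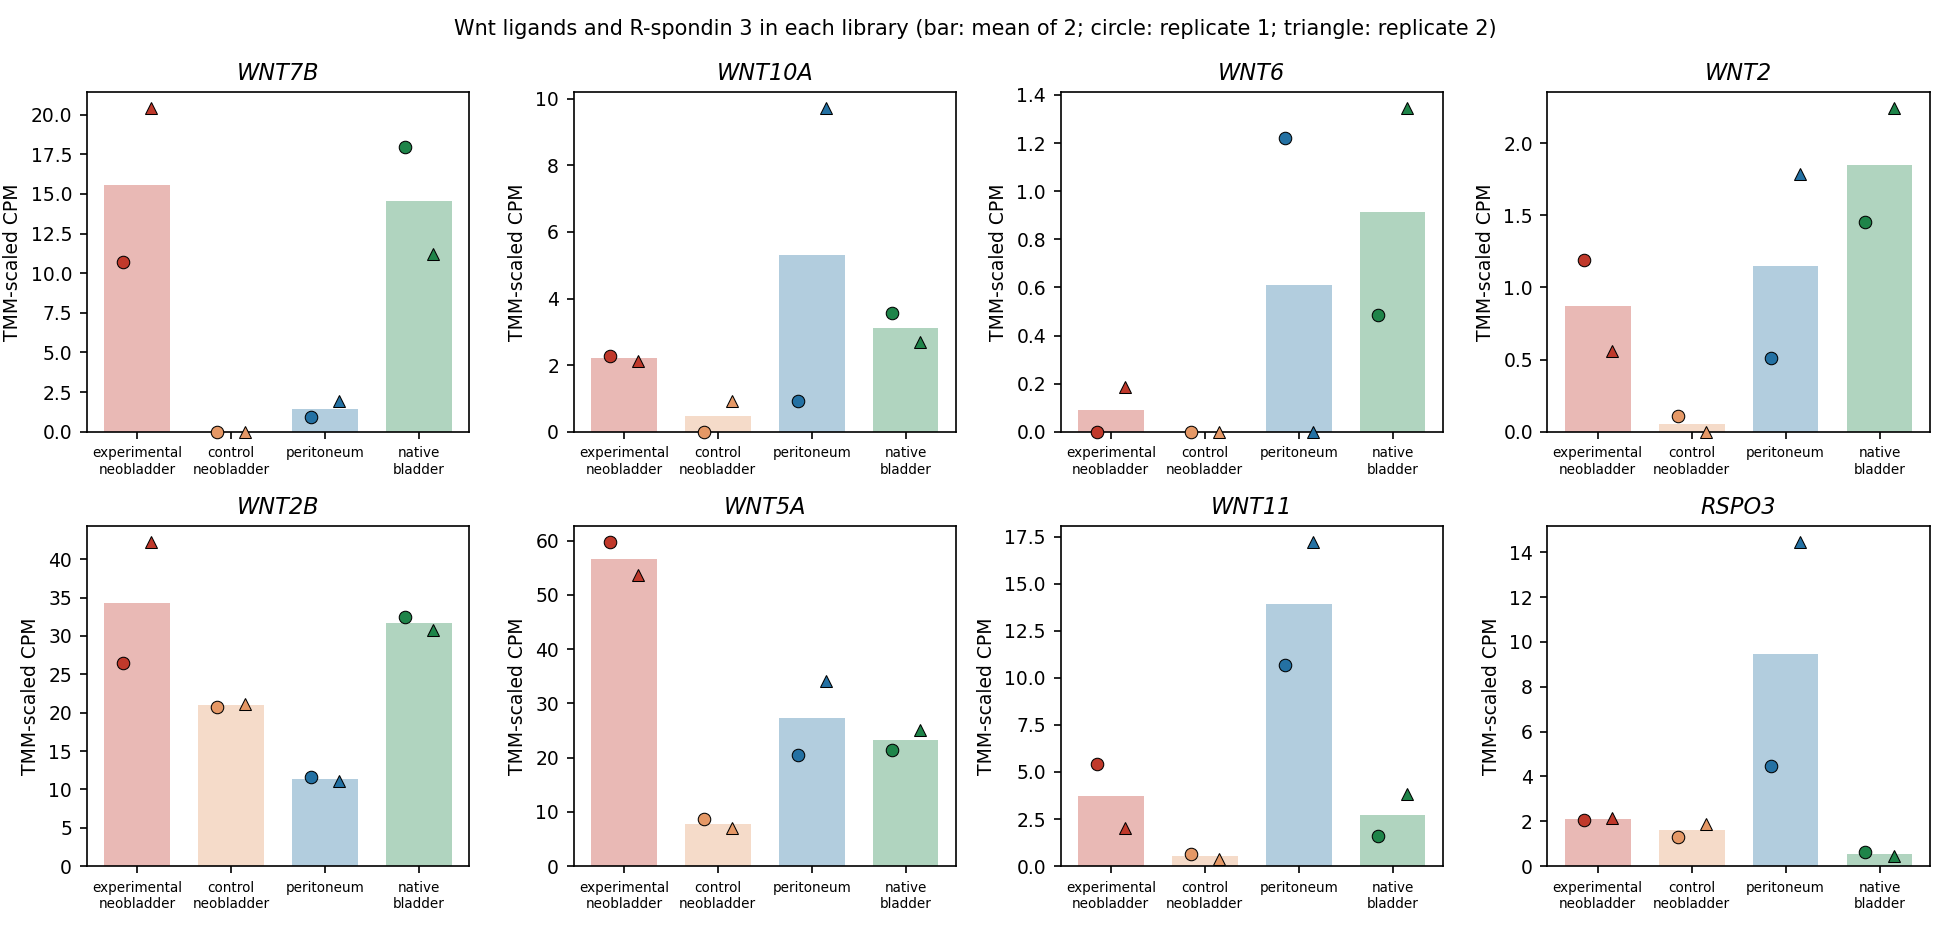
Scaled CPM (vertical axes, starting at 0, a different scale for each gene) of the 8 genes in the 4 groups, with bars for the mean of 2 libraries and a point for each library. WNT7B has 0 in both MN-Ctrl libraries, WNT5A is highest in MN-Exp at 59.7 and 53.6, and RSPO3 is highest in NP at 4.48 and 14.4.

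**Figure D2:**
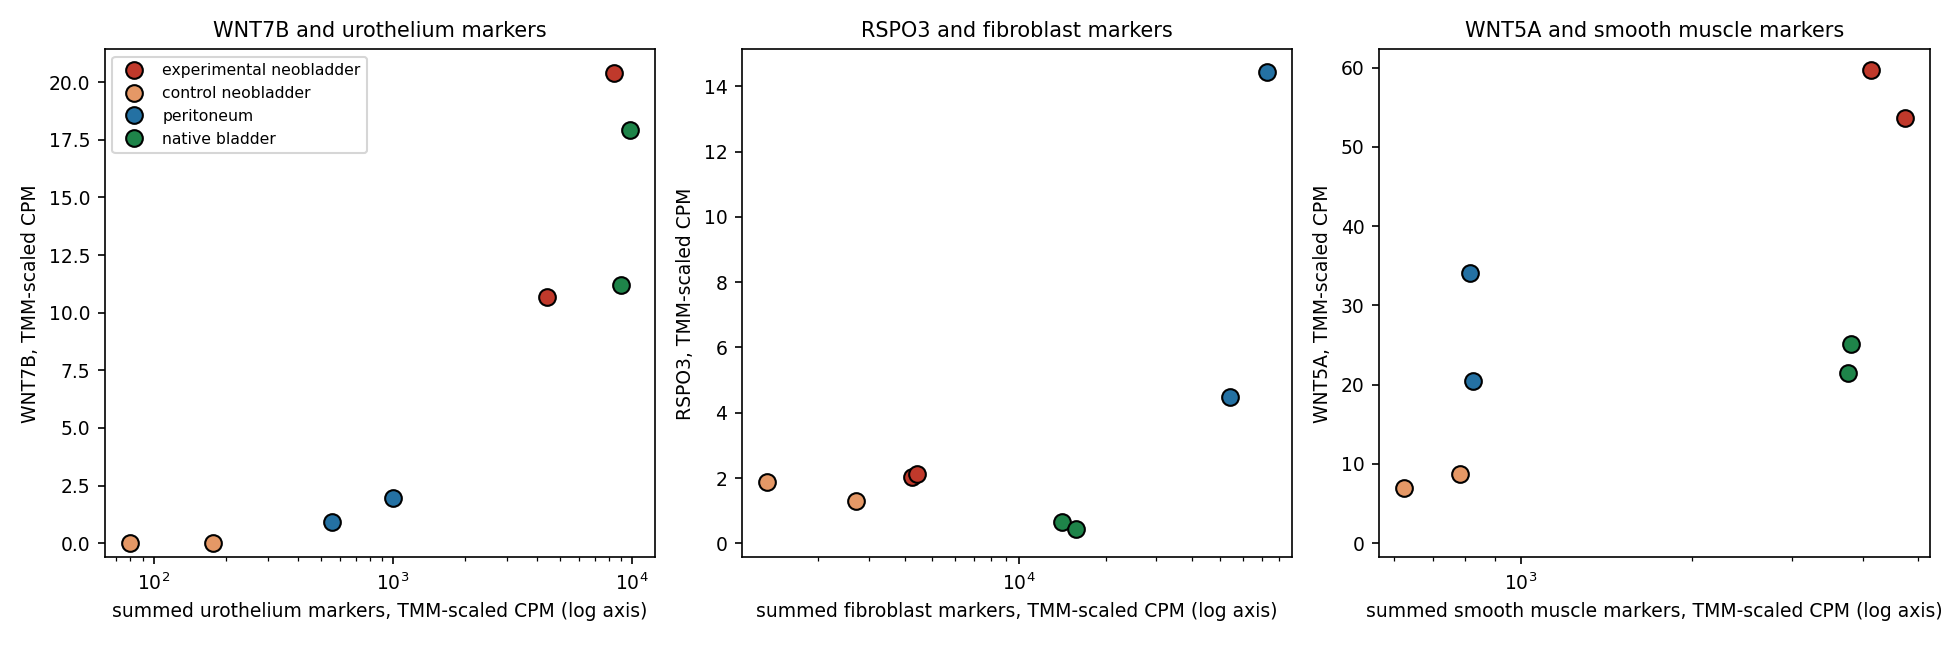
Level of WNT7B, RSPO3 and WNT5A (vertical axes, scaled CPM) against the summed markers of urothelium, fibroblasts and smooth muscle (horizontal log axes, scaled CPM), 1 point per library. The MN-Ctrl libraries sit at 0 for WNT7B with urothelial sums of 79.5 and 177, and the MN-Exp libraries lie above MNB for WNT5A at similar smooth muscle sums.

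The comparisons of neobladder groups addressed what the mucosa of the experimental group carried that the control did not. In MN-Exp against MN-Ctrl, 3 of the 8 members were higher (WNT7B, WNT5A and WNT11) and 0 were lower, where 10.4% of all genes tested were called higher. The median log2 fold change of the members was 2.81, or 2.77 over the 7 with a fold change and with WNT7B at its bound, against 0.11 over all genes. Libraries did not overlap for 7 of the 8, all higher in MN-Exp, where 34.1% of all genes were higher and 26.2% lower without overlap. WNT6, with 2 reads in MN-Exp and 0 in MN-Ctrl, was the exception.

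MN-Exp against MNB gave 0 called members in edgeR's quasi-likelihood test, where 0.0967% of all genes were called, and 0 in DESeq2. At an unadjusted p under 0.05 there were 2 of the 8, WNT5A and RSPO3, beside 1326 of 16549 genes, or 8.01%. RSPO3 had a log2 fold change of 1.91 there (SE 0.76, adjusted p = 0.533). The median of the members was 0.11, against 0.02 over all genes. Non-overlapping libraries were found in WNT5A and RSPO3, higher in MN-Exp, and in 3 members with lower levels in MN-Exp (WNT2, WNT6 and WNT10A), beside 24.8% and 23.7% of all genes.

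Against peritoneum the 2 neobladder groups differed in their counts, and they share the NP libraries. MN-Exp against NP had 2 members higher (WNT7B and WNT2B) and 1 lower (RSPO3), with 12.4% and 11.8% of all genes called higher and lower. The members' median was -0.83, against -0.01 over all genes. MN-Ctrl against NP had 6 of 8 lower (WNT7B, WNT10A, WNT2, WNT5A, WNT11 and RSPO3), where 20.6% of all genes were called lower. The members' median there was -3.81, or -2.71 with WNT7B and WNT6 at their bounds, against -0.06 over all genes. Without NP replicate 2 that count was 2, and without MN-Ctrl replicate 1 it was 3.

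MN-Ctrl against MNB had 3 of 8 lower (WNT7B, WNT2 and WNT5A), where 11.1% of all genes were called lower. The median was -2.63, or -2.24 with WNT7B and WNT6 at their bounds, against -0.11 over all genes. Leaving out either MNB library left 1 call, WNT7B. In 7 of 8 members both MN-Ctrl libraries were below both MNB libraries, as in 35.2% of all genes, and in RSPO3 both were above, as in 27.5%. NP against MNB had 2 higher (WNT11 and RSPO3) and 2 lower (WNT7B and WNT2B), with 9.93% and 11.1% of all genes called in those directions. The median was -0.19, against 0.01 over all genes. Each library left out in turn gave 1 or 2 calls.

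**Figure D3:**
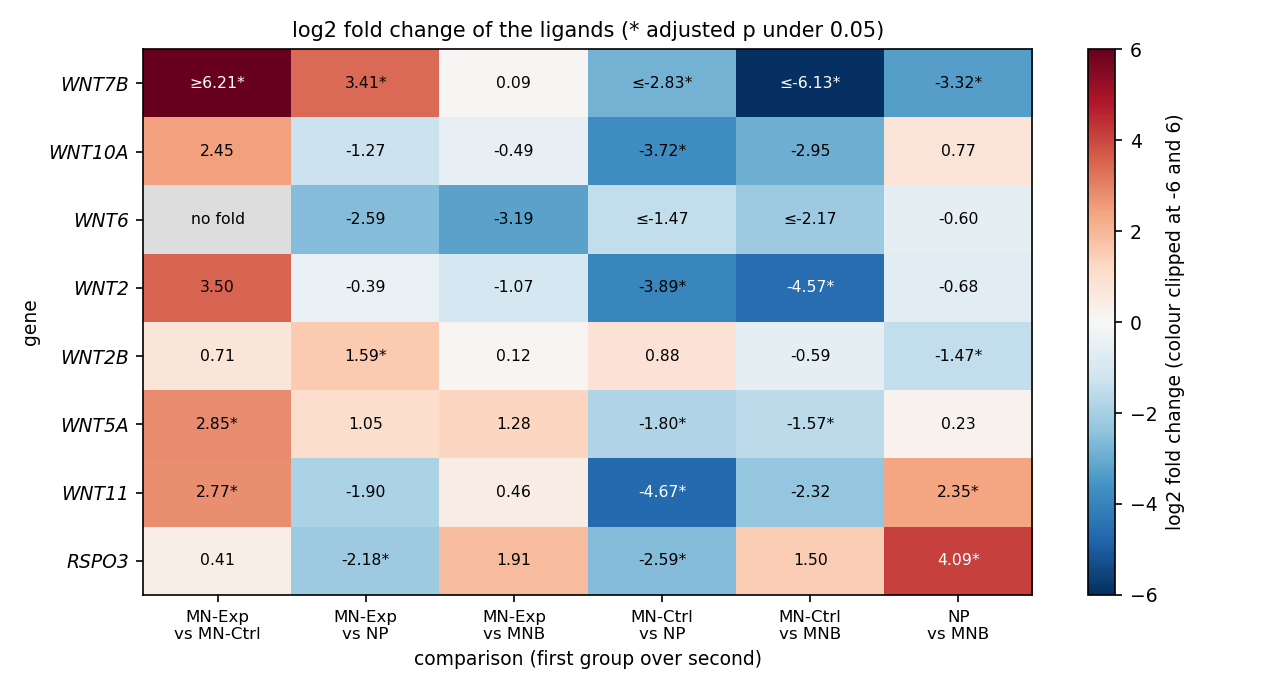
Log2 fold changes (colour and number) of the 8 genes (rows) in 6 comparisons (columns, first group over second), with a star at an adjusted p under 0.05, bounds against 3 counts where a group had 0 reads, and grey where both groups had too few reads for a fold change (WNT2 and WNT6 also include fitted values with 1 to 3 reads in a group). The MN-Exp against MNB column holds no star, and WNT7B carries one in each of the other 5.

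Of 11 other Wnt ligands 5 passed the low-count filter (WNT5B, WNT9A, WNT9B, WNT10B and WNT16). In MN-Exp against MN-Ctrl, 0 of these 5 were called by edgeR or DESeq2, 0 had an unadjusted p under 0.05, and the median was 0.43. Over all genes, edgeR called 10.4% higher and 11.3% lower, and 36.0% had an unadjusted p under 0.05. On library totals 1 of the 5 was called higher. WNT1, WNT3, WNT3A, WNT7A, WNT8A and WNT8B were below 1 CPM in every library. WNT9A, the most abundant of the other ligands, was at 10.2 and 12.0 CPM in MN-Exp, 8.38 and 8.06 in MN-Ctrl, 56.3 and 32.6 in NP, and 13.5 and 19.1 in MNB. NP lay above all others. WNT9A was lower in MN-Exp than in NP (log2 fold change -2.01, SE 0.41, adjusted p = 0.00547; 0.0502 to 0.0666 without either MN-Exp library or NP replicate 1). In MN-Ctrl against NP, WNT9A, WNT5B and WNT16 were called lower, where 20.6% of all genes were called lower. WNT5B lost that call without MN-Ctrl replicate 1 (adjusted p = 0.0853) or NP replicate 1 (0.116), and WNT16 without NP replicate 2 (0.112). With those 2 groups fitted alone WNT5B also lost it (0.0599). WNT5B was lower in MN-Exp than in NP as well (log2 fold change -2.27, adjusted p = 0.0312), where 11.8% of all genes were called lower. WNT5B, WNT9A and WNT16 were called higher in NP than in MNB, where 9.93% of all genes were called higher. These calls held in 6 to 9 of 10 other settings. RSPO1, the R-spondin related to RSPO3, was at 0.932 and 0.371 CPM in MN-Exp, 1.74 and 2.44 in MN-Ctrl, 29.6 and 59.4 in NP, and 0.242 and 0.0747 in MNB. Its NP libraries were above all others. RSPO1 was higher in NP than in MNB by 8.05 on the log2 scale (SE 0.75, adjusted p = 9.36e-05). LGR5, an R-spondin receptor and a crypt stem cell marker, was at 0.509 and 0.185 CPM in MN-Exp, 1.09 and 0.375 in MN-Ctrl, 118 and 290 in NP, and 0.323 and 0.598 in MNB. RNF43, which removes Frizzled receptors, ran the other way, at 18.0 and 17.0 CPM in MN-Exp, 21.1 and 12.0 in MN-Ctrl, 0.611 and 2.23 in NP, and 8.72 and 13.9 in MNB. ZNRF3, the other ligase named above, was highest in NP, as LGR5 was. It was at 3.64 and 5.38 CPM in MN-Exp, 3.70 and 1.87 in MN-Ctrl, 12.3 and 21.3 in NP, and 4.20 and 5.08 in MNB. LGR5, RNF43 and ZNRF3 passed the test in all 3 comparisons with NP. The ZNRF3 calls of NP against MN-Exp and against MNB each held in 6 of 10 other settings.

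Of 6 listed genes for secretion and modification of Wnt proteins 3 were tested, and 2 were higher in MN-Exp than in MN-Ctrl, where 10.4% of all genes were called higher. WLS, the carrier that takes Wnt proteins to the cell surface, was at 131 and 167 CPM in MN-Exp, 23.2 and 19.1 in MN-Ctrl, 85.0 and 151 in NP, and 132 and 169 in MNB. MN-Ctrl was lowest without overlap. WLS was higher in MN-Exp than in MN-Ctrl by 2.81 (SE 0.42, adjusted p = 0.00126), and the call held in the 10 other settings. PORCN, which adds the lipid, was higher by 1.87 (SE 0.45, adjusted p = 0.0140). The PORCN call was lost without either MN-Exp library and with those 2 groups fitted alone (adjusted p = 0.0570).

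Among receptors and coreceptors 13 of 16 were tested, and 3 were higher (FZD4, FZD6 and PTK7) and 1 lower (FZD5) in MN-Exp than in MN-Ctrl, where 10.4% of all genes were called higher and 11.3% lower, with a median of 0.85 against 0.11 over all genes. Without MN-Exp replicate 2 the count of 4 was 2. FZD5, a Frizzled of intestinal epithelium, was at 7.54 and 6.03 CPM in MN-Exp, 319 and 92.6 in MN-Ctrl, 16.8 and 21.7 in NP, and 15.4 and 16.2 in MNB. FZD6 was at 68.3 and 70.7 CPM in MN-Exp, 18.7 and 12.6 in MN-Ctrl, 45.2 and 35.4 in NP, and 72.3 and 72.1 in MNB. FZD5 was thus highest in MN-Ctrl, the group with the high intestinal marker sums, and FZD6 was lowest there. Secreted inhibitors had 12 of 15 tested, with 5 higher (APCDD1, DKK3, FRZB, SOST and SOSTDC1) and 1 lower (SFRP1) in MN-Exp than in MN-Ctrl, beside the same 10.4% and 11.3% of all genes, and 0 called without MN-Exp replicate 2 and 3 without MN-Exp replicate 1. In NP against MNB, 6 were higher (DKK2, DKK3, SFRP2, SFRP4, SFRP5 and WIF1) and 1 was lower (KREMEN1), where 9.93% of all genes were called higher and 11.1% lower. SFRP4, which binds Wnt proteins outside the cell, was at 5.26 and 4.17 CPM in MN-Exp, 5.72 ± 0.39 in MN-Ctrl (SD, n = 2), 736 and 826 in NP, and 6.30 and 21.6 in MNB. DKK2, which blocks LRP coreceptors, was at 2.54 and 1.48 CPM in MN-Exp, 0.218 and 1.31 in MN-Ctrl, 409 and 552 in NP, and 0.646 and 2.69 in MNB. Both passed the test in all 3 comparisons with NP, the group with the highest fibroblast and adipocyte marker sums, whose part was not tested.

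Of the beta-catenin core, 15 of 17 were tested and 1, LEF1, was higher in MN-Exp than in MN-Ctrl (log2 fold change 2.54, SE 0.74, adjusted p = 0.0344). Over all genes tested, 10.4% were called higher and 11.3% lower. The LEF1 call was lost with those 2 groups fitted alone (adjusted p = 0.0939) and without either MN-Exp library. The number of core genes called also changed when an MN-Ctrl library was left out. CTNNB1, beta-catenin itself, gave 1.10 (SE 0.55, adjusted p = 0.180). Among target genes of the pathway 13 of 16 were tested, 6 were higher (AXIN2, CCND1, CD44, EPHB3, NKD1 and TNFRSF19) and 2 lower (EPHB2 and SOX9), where 10.4% of all genes were called higher and 11.3% lower, with a median of 1.17 against 0.11 over all genes. The count of 8 was 4 without MN-Exp replicate 1 and 3 without replicate 2. CCND1, cyclin D1, was at 435 and 391 CPM in MN-Exp, 20.9 and 18.9 in MN-Ctrl, 75.5 and 57.9 in NP, and 288 and 163 in MNB. It was higher in MN-Exp than in MN-Ctrl by 4.37 (SE 0.46, adjusted p = 0.000166). AXIN2, a feedback inhibitor that many tissues induce on Wnt signalling, was at 14.3 and 15.9 CPM in MN-Exp, 5.12 and 0.562 in MN-Ctrl, 4.48 and 11.1 in NP, and 9.69 and 10.7 in MNB. Its call in MN-Exp against MN-Ctrl was marginal (log2 fold change 2.32, adjusted p = 0.0499) and held in 3 of 10 other settings. The AXIN2 call was lost without either MN-Exp library or MN-Ctrl replicate 2. It was also lost with size factors (adjusted p = 0.0526), on library totals (0.0513), with those 2 groups fitted alone (0.0953) and with replicate number as a block (0.0636). In MN-Exp against MNB, 0 genes of these lists were called by edgeR or DESeq2, and each list held 0 to 3 genes with an unadjusted p under 0.05.

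**Figure D4:**
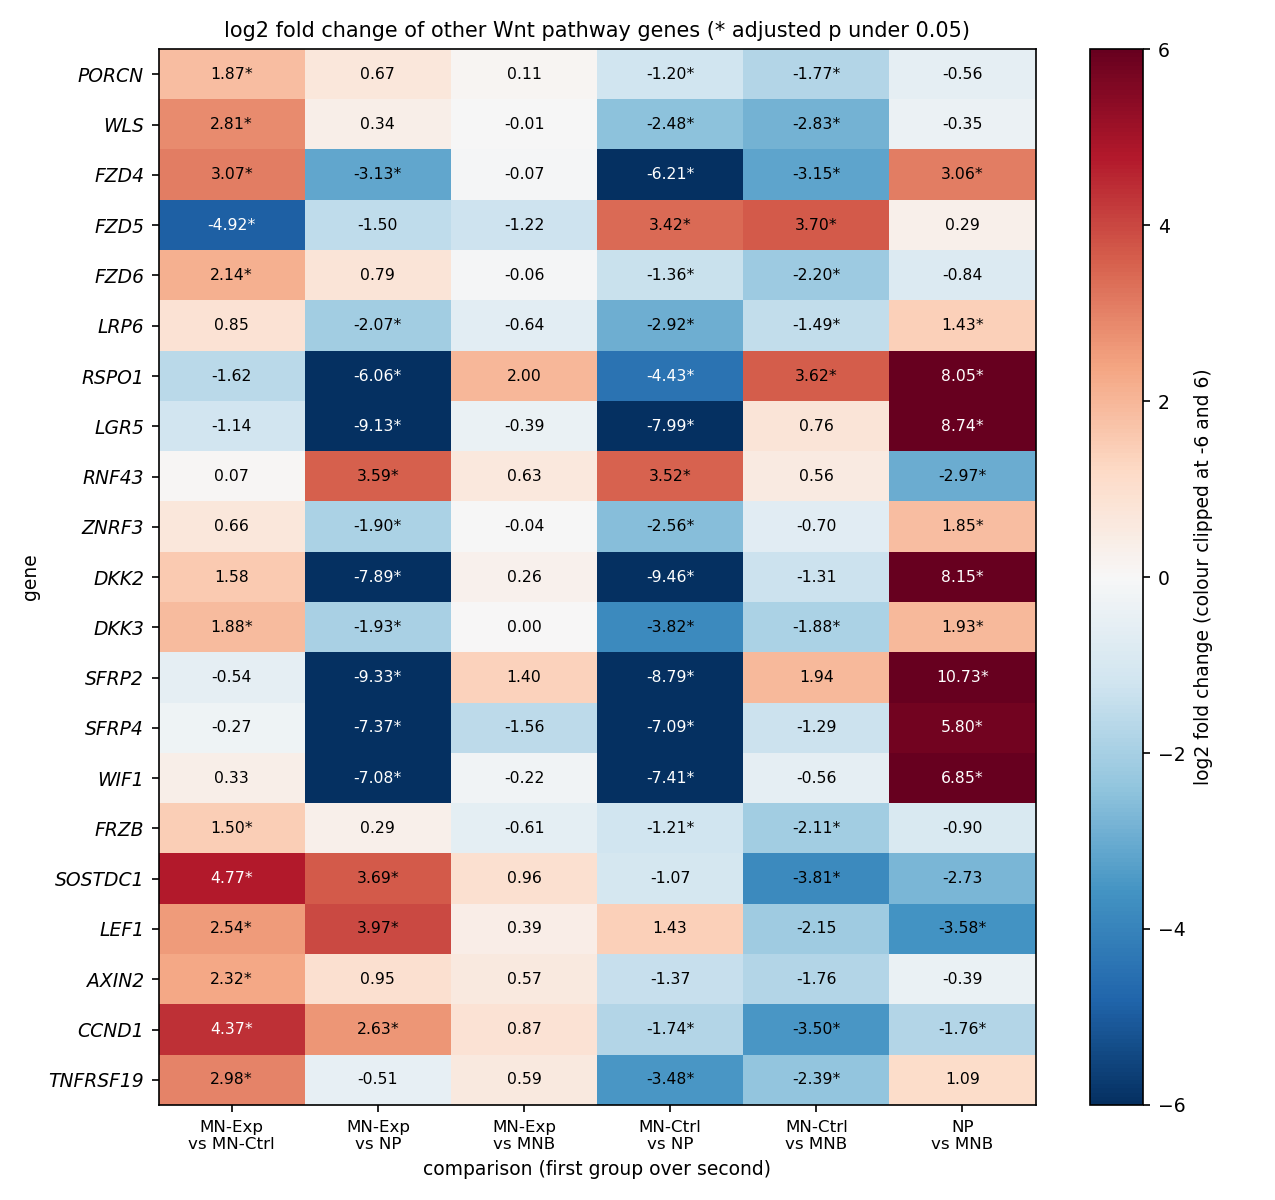
Log2 fold changes (colour and number) of 21 other Wnt pathway genes (rows), picked for display with their values known, in the same 6 comparisons (columns, first group over second), with a star at an adjusted p under 0.05; a few are fitted with 1 to 3 reads in a group, such as SFRP2 against MNB. RSPO1, LGR5, DKK2, SFRP2, SFRP4 and WIF1 have their strongest colours where NP is compared, and the MN-Exp against MNB column holds no star.

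For the 6 members with a mean of at least 1 CPM, the genes with the most similar pattern were ranked by the root mean square difference of centred log2 CPM over the 8 libraries, among genes with a mean of at least 5 CPM. WNT7B was closest to CCN1 (0.49), TGM1 (0.54) and NDRG2 (0.59). WNT5A was closest to RASL12 (0.31), ZFP36L1 (0.36) and RESF1 (0.36), and WNT2B to CIAPIN1, ADIPOR1 and DNAJA2 (0.18 to 0.19). The pattern of WNT11 was closest to GFRA1 (0.41), ASAP3 (0.43) and DNAH10 (0.44), and that of RSPO3 to COLEC12 (0.52), LOXL4 (0.60) and FOXO1 (0.62). WNT10A had no gene closer than BMERB1, at 0.70, followed by KCNE1 (0.78) and APCDD1 (0.79). These rankings are descriptions of 8 libraries in 4 groups.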

How the data were processed

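RNA of 8 tissue samples was sequenced after Smart-seq2 cDNA synthesis and TruSeq library preparation, per the labels. The authors deposited raw counts per Ensembl gene. Trim Galore, HISAT2, HTSeq 0.11.1 and Sscrofa11.1 are named in the submitters' processing notes, and their settings, annotation release and strand are not given in the sources used here. Symbols and positions came from RefSeq tables of Sscrofa11.1. Counts were fitted with edgeR 4.0.16 (limma 3.58.1, R 4.3.3): filterByExpr, TMM scaling, a robust quasi-likelihood fit over all 4 groups (4 residual degrees of freedom, biological coefficient of variation 0.38) and 6 comparisons, called at a Benjamini-Hochberg adjusted p under 0.05 over 16549 genes. The test was checked on simulated data. A count of 3 corresponds to 0.224 to 0.562 scaled CPM, and intervals and bounds cover counting error only. The alternatives tried were library totals, DESeq2 1.42.0 or only its size factors, no filter, the compared groups alone, replicate number as a block, and each library left out; a group left with 1 library is assumed to vary like the others. Members and lists were chosen with earlier results of these data known. Besides the members, up to 4 genes with the smallest p and 2 with the highest mean per list could be named, with all other Wnt ligands and R-spondins, the markers and the most similar genes; TRABD2B stood for its alias TIKI2. AXIN2, ST7L and some genes listed beside a count fall outside this rule and were named after their values were seen.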

Additional observations from a re-analysis of the deposited data

How the results depend on the processing

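Of 19 member calls 7 held in every setting (WNT7B in its 5 called comparisons, WNT5A in MN-Exp against MN-Ctrl and WNT11 in MN-Ctrl against NP), and 0 called values changed sign. On library totals 6 members were called in MN-Ctrl against MNB and 2 in NP against MNB, without the low-count filter 5 in MN-Ctrl against MNB, by DESeq2 5 in MN-Exp against NP, and with the compared groups alone 5 in MN-Exp against NP and 1 in MN-Exp against MNB. Over all genes, library totals gave 4090 calls in MN-Ctrl against MNB (3686 in the full fit) and 2472 in NP against MNB (3486). No filter gave 4573 in MN-Ctrl against MNB, and DESeq2 gave 4925 in MN-Exp against NP (3998). MN-Exp against MNB gave 16 such calls, but 5 on library totals, 249 by DESeq2, 352 without the filter and 453 with the groups alone. The groups alone also gave 2340 calls in MN-Exp against MN-Ctrl (3584 in the full fit), 6215 in MN-Exp against NP (3998), 2294 in MN-Ctrl against MNB (3686) and 5803 in NP against MNB (3486). Leaving out 1 library gave 2 to 3 called members in MN-Exp against MN-Ctrl, 1 to 2 in MN-Exp against NP, 0 in MN-Exp against MNB, 2 to 6 in MN-Ctrl against NP, 1 to 3 in MN-Ctrl against MNB and 1 to 2 in NP against MNB. Over all genes it gave 1396 to 6358 calls, 1762 to 2394, 3 to 7, 4671 to 8279, 1442 to 6485 and 1343 to 1989 in the same order. With replicate number as a block, 3 members were called in MN-Exp against MN-Ctrl, 2 in MN-Exp against NP and 4 in MN-Ctrl against NP. There were 2 in MN-Ctrl against MNB and 4 in NP against MNB. Over all genes the block gave 3140, 3657, 6400, 3268 and 3163 calls in the same order. With the block, WNT7B in MN-Exp against MNB was -0.0066. Same-numbered samples deviated together at r = -0.08 to 0.09. With 2 libraries a group, these values cannot show whether equal numbers share an animal. The labels name no pairing, so the numbers were not taken to pair samples. Uncalled values that changed sign were WNT2B in MN-Ctrl against NP on library totals (-0.050) and, with 1 library left out, in MN-Exp against NP WNT2 (-1.0 to 0.80), WNT6 (-5.67 to 3.12) and WNT10A (-2.10 to 1.29), in MN-Exp against MNB WNT11 (-0.40 to 1.21), WNT2B (-0.25 to 0.43) and WNT7B (-0.44 to 0.50), and in NP against MNB WNT5A (-0.24 to 0.53), WNT6 (-6.30 to 0.37) and WNT10A (-1.81 to 1.61). The causes were not tested. Having 2 libraries a group and few reads limits WNT2, WNT6 and, in MNB, RSPO3.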
